A study of Mus musculus with 16 samples.

Results

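Cfp1-/- mouse embryonic stem (ES) cells were compared after doxorubicin treatment and without it. The comparison used 8 of the 16 sequenced samples of the series, namely 4 runs of untreated and 4 runs of doxorubicin-treated Cfp1-/- cells. They were chosen by genotype and treatment label, and both runs of a library were summed, which left 2 biological replicates in each group. Both groups carried the same 129/OLA background and the same loss of both copies of Cfp1 (gene symbol Cxxc1). The treated group received 1 μM doxorubicin for 6 hours according to the protocol and the design text, while the treatment label of the samples reads 1 mM. All cells grew on gelatin in serum and LIF, the cytokine that maintains mouse ES cells. The remaining 8 samples came from wild-type (WT) E14Tg2a ES cells under the same 2 conditions and served for the comparison between lines. Nothing in the labels says whether replicates were separate cultures, so the p-values measure the spread between these libraries. A single Cfp1-/- line was used, and differences between it and the WT line other than Cfp1 cannot be told apart from loss of Cfp1.

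Doxorubicin is an anthracycline that intercalates into DNA and traps topoisomerase II on cut DNA, which leaves double-strand breaks. Breaks activate checkpoint kinases that stabilize p53, and p53 then switches on genes of cell cycle arrest, cell death, DNA repair and its own negative feedback. In mouse ES cells p53 activity is also known for repressing Nanog and other pluripotency genes. Cfp1 is the CpG-binding subunit of the Set1 complexes, which place trimethylation on histone H3 lysine 4 (H3K4me3) at promoters. The comparison addresses how far the transcriptional answer to DNA damage unfolds in cells that lack Cfp1.

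The untreated Cfp1-/- libraries held 23383421 and 25308913 gene counts, and the treated ones 17866427 and 18458036. Raw counts of the targeted gene itself, Cxxc1, were 4 and 3 without and 5 and 1 with doxorubicin, at or near the floor of 3 counts used here for a gene not detected, so no fold change is given for it. Markers of ES cells dominated the marker lists, with summed normalized read counts of 69369 and 76622 before and 32290 and 28019 after treatment, and 7 of the 8 fell. In bulk RNA, fewer cells of a type and less RNA per cell cannot be told apart. Fibroblast markers summed to 270.3 and 326.3 before and to 873.4 and 1018 after treatment. Of these 10 markers 4 rose, mainly Pdgfra and Col1a1, while Col3a1, Lum and S100a4 stayed at the floor in every library. Primitive endoderm markers went from 12993 and 13154 to 7604 and 8262, carried mainly by the matrix genes Lama1 and Col4a1, although 3 of the 9 rose (Gata4, Sox17 and Pdgfra) and 2 fell. Summed trophectoderm markers ranged from 198.1 to 520.1, neural markers from 1895 to 3218 and the 6 blood markers from 15.12 to 38.18. The part of other cell types in the results below was not tested. In 1 of the 2 runs of treated replicate 1 the counts broke off past 5.8 Mb of chromosome 19 and on the X and Y chromosomes, where 439 of 529 well-covered genes had 0 counts. That run was left out for the 1562 genes of this region, including Fas, Hells, Eras and Nr0b1 below. Outside the region its counts also departed from those of its partner run, with a chi-square of 15.62 per degree of freedom against 1.007 to 1.04 in the other Cfp1-/- libraries. Without this run for any gene, 773 genes were called up and 377 down.

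Doxorubicin changed the expression of a large share of genes in Cfp1-/- cells. Of 15702 genes tested, 829 (5.28%) were upregulated and 366 (2.33%) downregulated at an adjusted p below 0.05 in edgeR's quasi-likelihood test, a change of 2.5-fold or more and, averaged over the libraries, 200 or more normalized read counts. A normalized read count is a count scaled to a common effective depth of 21086200. By adjusted p alone, the meaning of "rose" and "fell" throughout, 4283 genes (27.3%) rose and 3599 (22.9%) fell. The median log2 fold change of the upregulated genes was 2.10, and 136 of them were at least 10-fold higher. The downregulated genes had a median of -1.60, and 7 were at least 10-fold lower. Upregulated genes started from a low level, with a median of 36.75 untreated normalized counts per kilobase of exon, against 477.9 for downregulated genes and 96.33 for all genes tested. Treated and untreated libraries did not overlap for any of the called genes, nor for 77.8% of all genes tested (both treated libraries higher in 39.2% and lower in 38.6%). Scaling by total counts in place of TMM raised the median log2 fold change of all genes by 0.25 and gave 1102 upregulated and 202 downregulated genes. Gene lists are described below by their counts and medians, beside these background shares and the median of all genes, -0.02. This background spans all levels, with 9508 of 15702 genes at a mean of 200 normalized counts or more. In the DNA replication, mitosis and splicing lists all members reached that mean, and 23 of 24 did in the elongation list. Summed counts of genes highly expressed in WT went down, as given below, and no background matched for level was used.

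**Figure D1:**
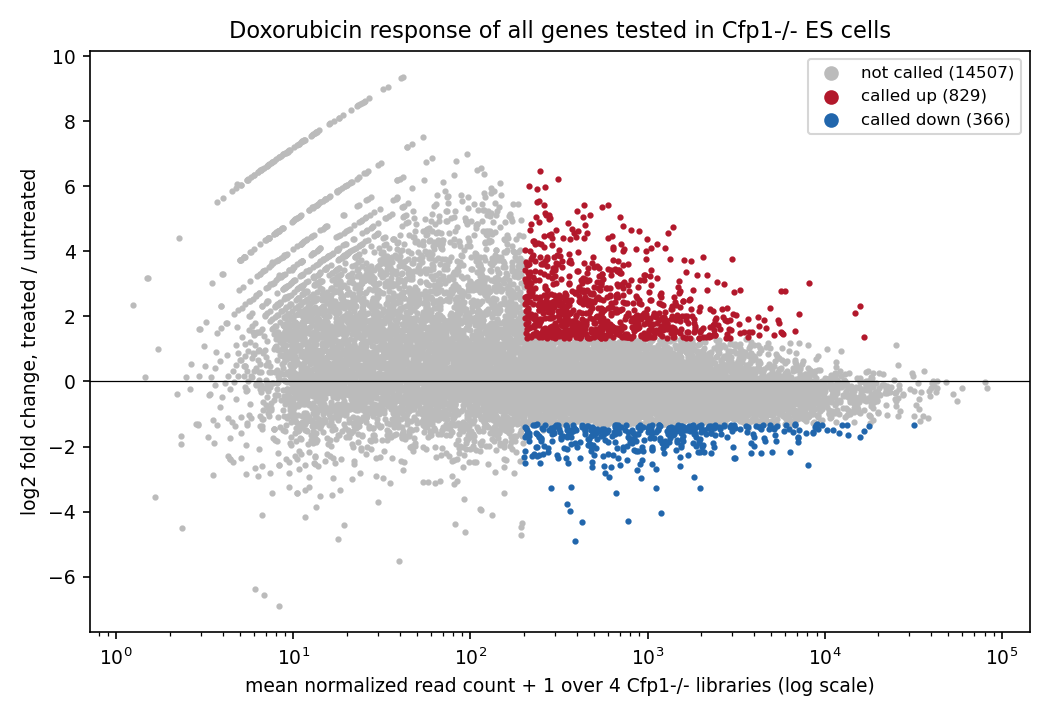
Log2 fold change (treated over untreated Cfp1-/- cells) of each gene tested against its mean normalized read count plus 1 over 4 libraries, on a log axis. Red points are the 829 upregulated and blue points the 366 downregulated genes, and the upward changes reach further than the downward ones.

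The steepest inductions began from almost nothing. Nsun7, a member of the NOL1/NOP2/Sun family of RNA methyltransferase proteins (chromosome 5, 66651151 to 66689255, mm9), had 4.73 and 5.98 normalized counts without treatment and 497.3 and 480.7 with it. Its fold change was 88.9, or 6.47 ± 0.40 (SE) on the log2 scale (adjusted p = 5.32e-06, edgeR). Myt1, a zinc finger factor of neural and endocrine progenitors, went from 7.56 and 5.12 to 357.4 and 479.7. These were the only upregulated genes with at most 10 raw counts in each untreated library. Eef1a2, the muscle and neuronal form of elongation factor 1 alpha, had 13.2 and 3.42 counts before and 518 and 717.6 after treatment. Art4, Cbln2, Bnc1, Otof and Rgs14 also stood among the 10 largest rises of called genes, with log2 fold changes between 5.42 and 5.97. The Wnt ligands Wnt3 and Wnt9a did so too. Several of these genes are known from differentiated tissues, such as Otof from hair cells and Bnc1 from keratinocytes and germ cells.

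Among the called genes, the largest gains in absolute counts fell to Mdm2, Neb, Trp53inp1, Plk2 and Apaf1. Neb, which encodes the giant thin-filament protein nebulin of muscle, had 5905 and 5318 normalized counts before and 20712 and 27417 after treatment (log2 fold change 2.10 ± 0.16, adjusted p = 1.20e-05, edgeR). Slc2a3, Igf2bp1, Hells and L1td1 were among the 5 largest losses of called genes. Hells, a chromatin remodeler needed for DNA methylation, went from 25476 and 26059 to 11274 and 8673 (-1.37 ± 0.14, adjusted p = 6.05e-05, edgeR). Treated and untreated libraries did not overlap in these genes, as in all called genes and in 77.8% of all genes tested.

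Transcripts of the p53 feedback circuit rose more often than they fell. Of 18 genes of p53 and its feedback regulators, 11 rose and 3 fell, with a median log2 fold change of 0.95. Mdm2, the ubiquitin ligase that degrades p53, had 6079 and 4572 normalized counts untreated and 27483 and 25270 treated (log2 fold change 2.31 ± 0.17, adjusted p = 1.17e-05, edgeR). Trp53inp1, a stress protein that promotes p53 activity and autophagy, went from 9024 and 9497 to 25897 and 22142, and the phosphatase gene Ppm1d, whose product shuts off the damage response, from 1265 and 1068 to 2987 and 2688. Trp73, which encodes the p53 relative p73, rose the most of the list's genes, from 79.4 and 91.4 to 1359 and 1390, a 16.1-fold change (adjusted p = 3.92e-06, edgeR). The groups did not overlap in any of these genes, nor in 77.8% of all genes tested. Trp53 itself fell by 0.55 on the log2 scale, from 4760 and 4369 to 3457 and 2761 counts (adjusted p = 0.00979, edgeR), a call that was lost with scaling by total counts (-0.31, adjusted p = 0.082) and without treated replicate 2 (-0.42, adjusted p = 0.0788).

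In the list of p53 targets of growth arrest, 10 of 20 genes rose and 2 fell (median 1.15). Cdkn1a encodes p21, the inhibitor of cyclin-dependent kinases through which p53 stops cells in G1, and had 345 and 265.6 counts before and 1313 and 1183 after treatment. Its log2 fold change was 2.03 ± 0.24 (adjusted p = 0.000122, edgeR). Btg2, an antiproliferative factor that promotes mRNA deadenylation, rose from 793.1 and 799.4 to 5518 and 5248, and the polo-like kinase gene Plk2 from 1858 and 1742 to 15091 and 14013. Cgref1, a calcium-binding growth regulator, went from 93.6 and 111 to 620.6 and 732.3. In the opposite direction, Cdkn1b, the gene of the related inhibitor p27, fell from 432.9 and 408.2 to 95.3 and 53.8 (-2.50 ± 0.25, adjusted p = 5.24e-05, edgeR). Gadd45a, another classical p53 target, had 840.3 and 602.1 counts untreated and 767.7 and 440.6 treated and did not pass the test (adjusted p = 0.463, edgeR).

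Of the 22 tested p53 targets of cell death, 14 rose and 1 fell (median 0.97). Pmaip1, which encodes the BH3-only protein Noxa, had 333.7 and 305.8 counts untreated and 2902 and 2511 treated (3.08 ± 0.24, adjusted p = 1.29e-05, edgeR). Apaf1, the core of the apoptosome that activates caspase-9, rose from 1624 and 1422 to 10002 and 10989. The death receptor gene Fas rose from 18.0 and 29.0 to 465.3 and 601.1. Smaller rises were measured for Perp (1.78 ± 0.30), a membrane protein of apoptosis and cell adhesion, for Lrdd (1.77 ± 0.20), the adaptor PIDD, and for Bbc3 (1.14 ± 0.21), which encodes Puma. Bax, the pore-forming death effector (log2 fold change -0.01), had 1418, 1514, 1379 and 1522 counts, the untreated libraries first, and its groups overlapped.

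Of the p53 targets of repair and metabolism, 22 of 34 rose and none fell (median 1.06). Tap1, the peptide transporter of antigen presentation, rose from 60.5 and 82.0 to 1199 and 1490, an 18.8-fold change (adjusted p = 1.44e-05, edgeR). Ephx1, a detoxifying epoxide hydrolase, rose from 147.5 and 104.2 to 1205 and 1353, and Ddit4, an inhibitor of mTOR signaling, from 114.4 and 135.8 to 971.8 and 874.3. The endonuclease gene Ercc5 of nucleotide excision repair rose by 1.90 ± 0.14 on the log2 scale and Zfp365, a protector of fragile sites, by 2.80 ± 0.14. These p53 lists were drawn from known target genes, and their medians of 0.95 to 1.15 stand beside -0.02 for all genes tested.

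**Figure D2:**
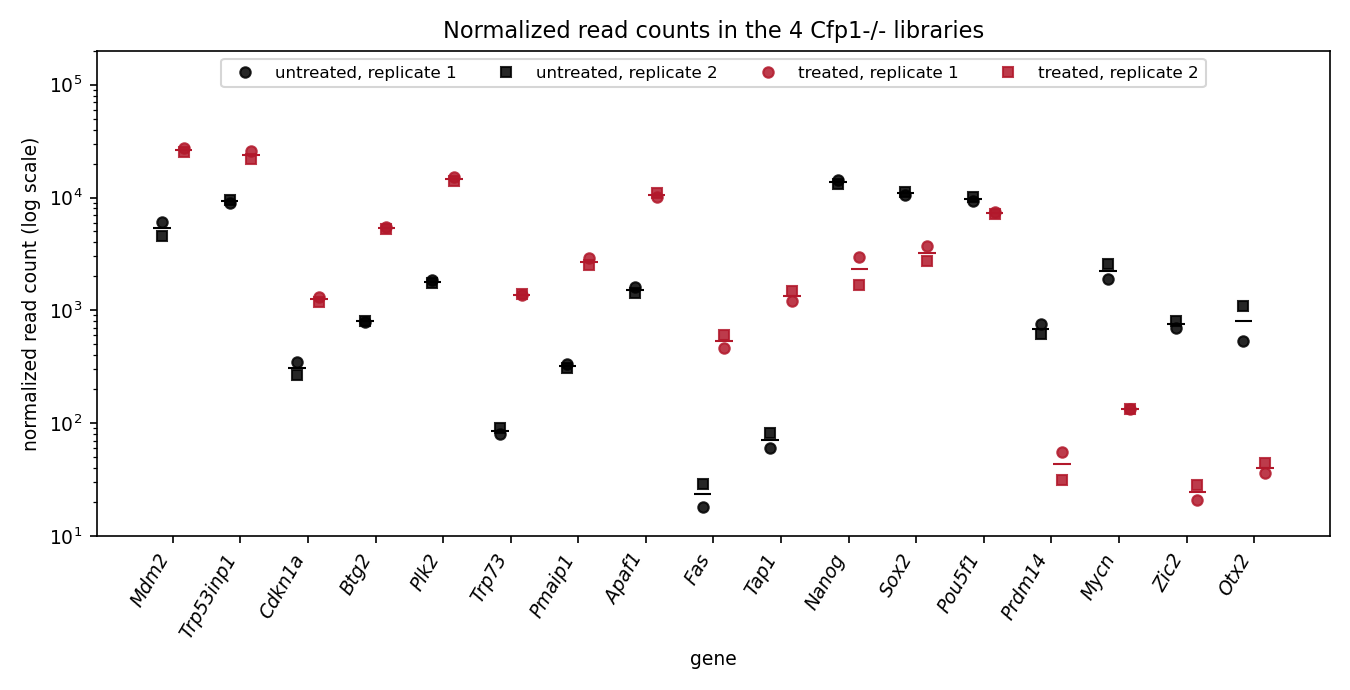
Normalized read counts (log axis) of 17 named genes in the 4 Cfp1-/- libraries. Circles are replicate 1 and squares replicate 2, black untreated and red treated, and short lines mark group means. The groups do not overlap for any gene shown, nor for 77.8% of all genes tested. The 10 p53 targets at the left are higher after treatment and the 7 pluripotency and epiblast genes at the right lower.

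Promoter sequence was examined in a window from 250 bases before to 50 after the RefSeq start, available for 10850 of the genes tested. The search was for the p53 consensus as 2 adjacent half-sites of 10 bases on either strand, with the C and G of each core intact and at most 1 mismatch elsewhere. Such a site was present in 6 of all 10850 promoters (0.0553%), in 1 of 608 promoters of upregulated genes, in 0 of 232 of downregulated genes and in 3 of 76 promoters of the p53 lists. The window does not cover distal or intronic sites. The following 30-base stretches are shown because they lie at genes that rose (the first 3) or at known p53 targets that did not pass the test. They are written from 5′ to 3′ on the gene's strand, with the 20-base site in capitals.
Cdkn1a, chr17:29090923-29090952, + strand, GRCm38.p6: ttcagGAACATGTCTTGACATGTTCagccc
Ccng1, chr11:40755457-40755486, - strand, GRCm38.p6: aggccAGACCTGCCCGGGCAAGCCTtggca
Calhm2, chr19:47138446-47138475, - strand, GRCm38.p6: ctggaGGGCAAGCCTAGGCAAGATCtcctt
Gtse1, chr15:85859940-85859969, + strand, GRCm38.p6: accggGAGCAAGTTGGGGCTTGCCTctgac
Rps27l, chr9:66946291-66946320, + strand, GRCm38.p6: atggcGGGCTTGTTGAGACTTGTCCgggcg

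The Cdkn1a site began 51 bases upstream of a RefSeq start, and the gene was the single member of the 5 that passed all limits for upregulation. Where a gene had several RefSeq starts, each was searched. The paper distinguishes separate start sites at Cdkn1a, and which of them this start is was not tested. Ccng1, the cyclin G1 gene of the Mdm2 feedback circuit, rose by 1.12 ± 0.13 from 15514 and 16585 to 34540 and 35053 counts (adjusted p = 0.000119, edgeR). Calhm2, a calcium homeostasis modulator, rose by 1.78 ± 0.28 from 70.9 and 49.5 to 187.7 and 225.2. Gtse1 (log2 fold change 0.09) and Rps27l (0.04) carried a site of the same quality. In WT cells Gtse1 was at 1.18, and its response differed between the lines (-1.09 ± 0.16, adjusted p = 0.0343, edgeR). Fits that each leave out 1 library gave differences of -1.16 to -1.05. The difference passed the test only with all libraries in the fit. CpG content was alike in the 3 sets, with a median of 20 CpGs in upregulated, 19 in downregulated and 19 in all tested promoters.

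The Wnt ligand genes encode secreted signals that pattern the early embryo. Of the 16 tested of 19, 13 rose and 1 fell, with a median log2 fold change of 3.40, although only 3 had a mean of at least 200 counts. Wnt9a had 34.0 and 19.6 counts untreated and 1182 and 1143 treated (5.44 ± 0.28, adjusted p = 3.27e-06, edgeR). Wnt3, a ligand required for gastrulation, went from 14.2 and 24.8 to 871.3 and 843.9. Wnt8b, whose counts on chromosome 19 rest on a single run in treated replicate 1, went from 6.62 and 4.27 to 250.3 and 331.9, and Wnt3a from 12.3 and 11.1 to 288 and 196.8. Wnt9b and Wnt10b had at most 2 raw counts in any untreated library and reached 101.5 and 111.6, and 32.1 and 38.2 normalized counts. Wnt5a was the one that fell, from 117.2 and 208.4 to 80.8 and 83.2 (adjusted p = 0.0263, edgeR), and it no longer passed with scaling by total counts (-0.75, adjusted p = 0.0838) or when either treated library or untreated replicate 2 was left out.

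Immediate-early genes, the fast transcription factors and phosphatases of growth factor signaling, rose in 8 of 28 cases and fell in 6, with a median of 0.09, near the background shares of 27.3% and 22.9%. The AP-1 subunit gene Fosl1 rose 35.1-fold, from 23.6 and 28.2 to 928.3 and 904.7 counts (adjusted p = 2.14e-06, edgeR). Fos rose from 96.4 and 193.9 to 905.5 and 716.7, and Mafk, a small Maf factor, from 188.1 and 226.3 to 806 and 856.7. In contrast Ctgf, a matrix protein induced by Yap signaling, fell from 1729 and 1124 to 403 and 251.6, and Klf6 from 1069 and 1361 to 278.7 and 339.7.

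Pluripotency regulators went down. Of 38 genes 29 fell and none rose (median -1.28), and 17 passed the limits for downregulation. Without treated replicate 2, 20 fell. Nanog, a core factor of the pluripotency network, had 14325 and 13176 counts untreated and 2948 and 1660 treated, which left 0.168 of its level (-2.58 ± 0.36, adjusted p = 0.000337, edgeR). Sox2, the partner of Oct4, fell from 10467 and 11251 to 3711 and 2743 (-1.75 ± 0.24). Pou5f1, which encodes Oct4, had 9387 and 10023 counts untreated and 7428 and 7153 treated (-0.41 ± 0.13, adjusted p = 0.0264, edgeR). Its call was lost with scaling by total counts (-0.17, adjusted p = 0.323) and when either treated library or untreated replicate 2 was left out.

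Within this network the steepest falls were those of Mycn (-4.06 ± 0.22), the Myc family member most active in ES cells, and Prdm14 (-3.97 ± 0.52), which protects naive pluripotency. Mycn had 1892 and 2578 counts untreated and 134.7 and 133.2 treated, and Prdm14 755.3 and 616.6 before and 55.9 and 31.3 after. Sall1 (-3.27), a zinc finger partner of Nanog, Nr5a2 (-2.93), an activator of Pou5f1, Klf2 (-2.82), a Krüppel-like factor of the naive state, and Nr0b1 (-2.68), an orphan receptor that restrains Oct4, fell as well. Dppa5a, a further ES cell marker, did not pass the test, and its groups overlapped (4785 and 5311 against 5197 and 3816 counts). Eras, the ES-cell-specific Ras gene on the X chromosome, fell from 669.2 and 629.5 to 67.4 and 31.3. In each of these genes treated replicate 2 was the lower of the treated pair.

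Genes of the primed state and of lineage commitment fell more often than they rose. Of 32 tested 4 rose (2 without treated replicate 1) and 13 fell (median -0.96), and without treated replicate 2 the number that fell was 7. The strongest fall of all downregulated genes was that of Zic2, a zinc finger factor of epiblast and neural plate, from 690 and 809.7 to 20.7 and 28.4 counts (-4.92 ± 0.26, adjusted p = 3.33e-06, edgeR). Its relative Zic5 went from 1246 and 1700 to 114 and 38.2. Otx2, which drives the exit from the naive state, went from 532.2 and 1090 to 36.3 and 44.1, and the Nodal antagonist Lefty2 from 1900 and 3330 to 415.4 and 449.4. Nodal itself, a TGF-beta ligand, rose from 498.1 and 620.9 to 1715 and 1596 (1.56 ± 0.16, adjusted p = 6.60e-05, edgeR). Zfp819 (-3.43), Lrrn4 (-3.27) and Sgk1 (-3.26), a serum-regulated kinase, completed the 10 largest falls of called genes.

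Mitotic genes fell as a group: 37 of 42 genes of G2 and mitosis fell and none rose (median -0.91), with 11 called downregulated. Prc1, which bundles microtubules at the spindle midzone, had 8390 and 8188 counts untreated and 2160 and 1534 treated (-2.17 ± 0.21, adjusted p = 4.18e-05, edgeR). The mitotic kinase gene Plk1 went from 3297 and 3245 to 971.8 and 727.4, and Aurka, the centrosomal aurora kinase gene, from 1852 and 2066 to 588.5 and 523.8. Tpx2 (-1.53), which activates Aurora A on the spindle, Ect2 (-1.63), the exchange factor of cytokinesis, and Wee1 (-1.53), the kinase that holds back mitotic entry, fell too. For these 6 genes, all called downregulated, both treated libraries were below both untreated ones, as in 38.6% of all genes tested.

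Promoters of G2 and mitosis genes are known to carry the cell cycle genes homology region (CHR), written TTTGAA, often with a CCAAT box, the binding site of NF-Y. Either motif was sought on both strands of the same 300-base window, and neither overlaps the other in sequence. TTTGAA was present in 24 of 33 promoters of this list (72.7%) against 14.2% of all tested promoters, and CCAAT in 26 of 33 (78.8%) against 42.9%. Both motifs occurred together in 63.6% of the list and in 5.82% of all promoters. In the DNA replication list TTTGAA was present in 17.1% of 35 promoters, and in the ribosomal protein list in 5.36% of 56. Of the 24 genes with TTTGAA, Ccnf (log2 fold change -0.20) alone did not pass the test. The 4 stretches are shown because they place the motif near the start of reduced mitotic genes, with TTTGAA in capitals on the gene's strand.
Prc1, chr7:80294434-80294463, + strand, GRCm38.p6: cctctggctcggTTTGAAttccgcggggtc
Plk1, chr7:122159453-122159482, + strand, GRCm38.p6: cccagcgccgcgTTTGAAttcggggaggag
Aurka, chr2:172370521-172370550, - strand, GRCm38.p6: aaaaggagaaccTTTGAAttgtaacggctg
Cdk1, chr10:69352910-69352939, - strand, GRCm38.p6: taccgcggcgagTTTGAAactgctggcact

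Cdk1, the kinase that starts mitosis, fell by 1.19 on the log2 scale, less than Prc1, Plk1 and Aurka. Its motif began 15 bases before the start, and those of Plk1 and Aurka 30 and 32 bases after it. These matches describe letters in a window, and binding was not measured.

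DNA replication genes fell more mildly, 28 of 44 with 1 rise and a median of -0.52. The number that fell was 16 with scaling by total counts. Dbf4, the activator of the kinase that fires origins, was the only one called downregulated, from 7073 and 6871 to 2409 and 1787 counts (-1.73 ± 0.15, adjusted p = 2.86e-05, edgeR). Gmnn, which encodes the licensing inhibitor geminin, had a log2 fold change of -1.28 ± 0.17, and Pcna, the sliding clamp, -0.86 ± 0.16. Among G1 cyclin, E2F and retinoblastoma genes 11 of 22 fell and 4 rose. The pocket protein genes Rbl2 and Rb1, which restrain E2F, rose from 569 and 485.1 to 4440 and 4398, and from 988.7 and 726.8 to 3411 and 4251. Ccnd1 (-1.43 ± 0.24) and Cdk6 (-1.93 ± 0.19), which together drive the G1 phase, fell, as did Ccne1 (-1.27 ± 0.15), the cyclin E1 gene. Without treated replicate 2, the number of this list that fell was 5, and with scaling by total counts 6.

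Replication-dependent histone genes, whose mRNAs lack a poly(A) tail and are kept by rRNA depletion, fell in 57 of 65 cases and rose in none, with 35 called downregulated and a median of -1.67. By class, 5 of 6 linker H1 genes fell, 13 of 18 of H2A, 16 of 17 of H2B, 11 of 11 of H3 and 12 of 13 of H4. Hist1h1e had 1777 and 1811 counts untreated and 332.6 and 289.8 treated (-2.53 ± 0.15, adjusted p = 4.81e-06, edgeR), and Hist1h1d 5032 and 5369 against 1063 and 951.6. Among core histones Hist1h2ae went from 392.3 and 433.9 to 112.9 and 95.0, and Hist1h3c from 709.9 and 824.2 to 255.9 and 251.6. Many of these genes are near-identical copies, so counts of single members are uncertain.

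In the list of genes of the Set1 complexes, to which Cfp1 belongs, of the related MLL complexes and of H3K4 demethylases, 14 of 21 fell and 1 rose (median -0.63). Wdr82, a Set1 complex subunit that the related MLL complexes lack, went from 6162 and 5698 to 3024 and 2101 (-1.21 ± 0.17, adjusted p = 0.000339, edgeR), and Wdr5, shared by all related methyltransferases, from 6156 and 5505 to 3089 and 2786. The methyltransferase gene Setd1b fell from 1787 and 627.7 to 452.7 and 267.3 (-1.75 ± 0.50, adjusted p = 0.0156, edgeR), with untreated replicates far apart. It no longer passed without untreated replicate 1 (-0.82, adjusted p = 0.172) or without treated replicate 2 (-1.44, adjusted p = 0.121). Kdm1b, a demethylase of H3K4 mono- and dimethylation, was the gene that rose, from 642.8 and 720 to 1589 and 1734.

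In the list of P-TEFb and other factors that help RNA polymerase II elongate, 12 of 24 genes fell and 1 rose (median -0.50). Those that fell included Aff4 (-1.25 ± 0.14), the scaffold of the super elongation complex, and Cdk12 (-0.90 ± 0.16), an elongation kinase that supports long repair genes. The number that fell was 7 without treated replicate 2 and 7 with scaling by total counts. Of 19 SR splicing factor and Clk kinase genes 12 fell and none rose (median -0.67). Srsf3 went from 10090 and 11807 to 5251 and 4263, and Srsf1 from 21833 and 25982 to 13561 and 9741. Neither list had a gene called upregulated or downregulated.

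Of 29 genes of break signaling and checkpoints 14 fell and 2 rose (median -0.34). H2afx, the histone that is phosphorylated at breaks, fell from 2326 and 2379 to 1057 and 624.6 (-1.49 ± 0.21), while Nhej1, the end-joining factor XLF, rose from 131.4 and 128.1 to 290.1 and 424.9 (1.46 ± 0.24). The number that fell was 7 with scaling by total counts, 9 without treated replicate 1 and 8 without untreated replicate 2. For homologous recombination and Fanconi genes 9 of 33 fell and 4 rose (median -0.23), beside background shares of 22.9% and 27.3%. Brca1 (-0.83 ± 0.15) and Brca2 (-0.77 ± 0.15) were among those that fell. With scaling by total counts 4 genes of that list fell and 7 rose, and without treated replicate 1 the number that fell was 5, and without treated replicate 2 the number that rose was 2.

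The drug's own target and transporters were measured as well. Top2a, the topoisomerase II of dividing cells, fell from 48868 and 56834 to 24547 and 23534 (-1.14 ± 0.14, adjusted p = 0.000184, edgeR), and Tdp2, which removes topoisomerase II from DNA ends, from 1770 and 1886 to 1024 and 890.9. Top1mt, the mitochondrial topoisomerase, rose from 156 and 198.1 to 742.8 and 777.4. These were the genes that passed in a list of 8 topoisomerase and repair genes (median -0.22), and the other 5 did not pass. Of 12 genes of anthracycline efflux and metabolism 3 rose and 2 fell (median 0.06), beside background shares of 27.3% and 22.9%. The efflux pump gene Abcb1b, which encodes a P-glycoprotein, rose from 3024 and 3212 to 8273 and 8891 (1.46 ± 0.16), and Abcg2, another pump, fell from 2514 and 2454 to 999.8 and 916.4 (-1.37 ± 0.14).

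In glycolysis and glucose uptake 3 of 24 genes rose and 5 fell (median -0.19). Background shares, for this and the following lists, were 27.3% that rose and 22.9% that fell. Hk2, hexokinase 2, went from 10949 and 10681 to 3897 and 2687, and the neuronal glucose transporter gene Slc2a3 from 23059 and 25694 to 8579 and 6283, while Pfkfb4, a regulator of phosphofructokinase, rose from 57.7 and 39.3 to 399.9 and 383.8. The number that fell was 8 without untreated replicate 1 and 8 with the replicate number as a block. For cholesterol synthesis and uptake 10 of 26 fell and 2 rose. Sqle, the squalene epoxidase gene, fell by 1.32 on the log2 scale. In the heat shock and integrated stress response list 8 of 32 rose and 11 fell. Hspa1a, the inducible Hsp70, rose from 36.9 and 87.1 to 388.5 and 319.2, and Hspa5, the chaperone BiP of the endoplasmic reticulum, fell from 16941 and 24430 to 9035 and 8274. The number that fell in this list was 5 without treated replicate 2 and 7 with scaling by total counts.

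Of 27 interferon-response genes 7 rose and 5 fell, near the background shares of 27.3% and 22.9%. Zbp1, a sensor of Z-form nucleic acid, rose from 57.7 and 74.3 to 574 and 506.2. Ddx58, the RNA sensor RIG-I, fell from 1840 and 1608 to 483.8 and 314.3 (-2.11 ± 0.23). The cytosolic ribosomal protein genes were the tightest list, with 1 of 78 (Rpl3, -0.62 ± 0.17) past the test and a median of -0.08. Rpl3 no longer passed without treated replicate 1 (-0.41), without untreated replicate 2 (-0.52) or with scaling by total counts (-0.37), which gave the list a median of 0.16 and 5 that rose. In that scaling the medians of the glycolysis, recombination, topoisomerase, interferon and stress lists also turned positive, between 0.001 and 0.23, beside 0.22 for the genes tested.

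**Figure D3:**
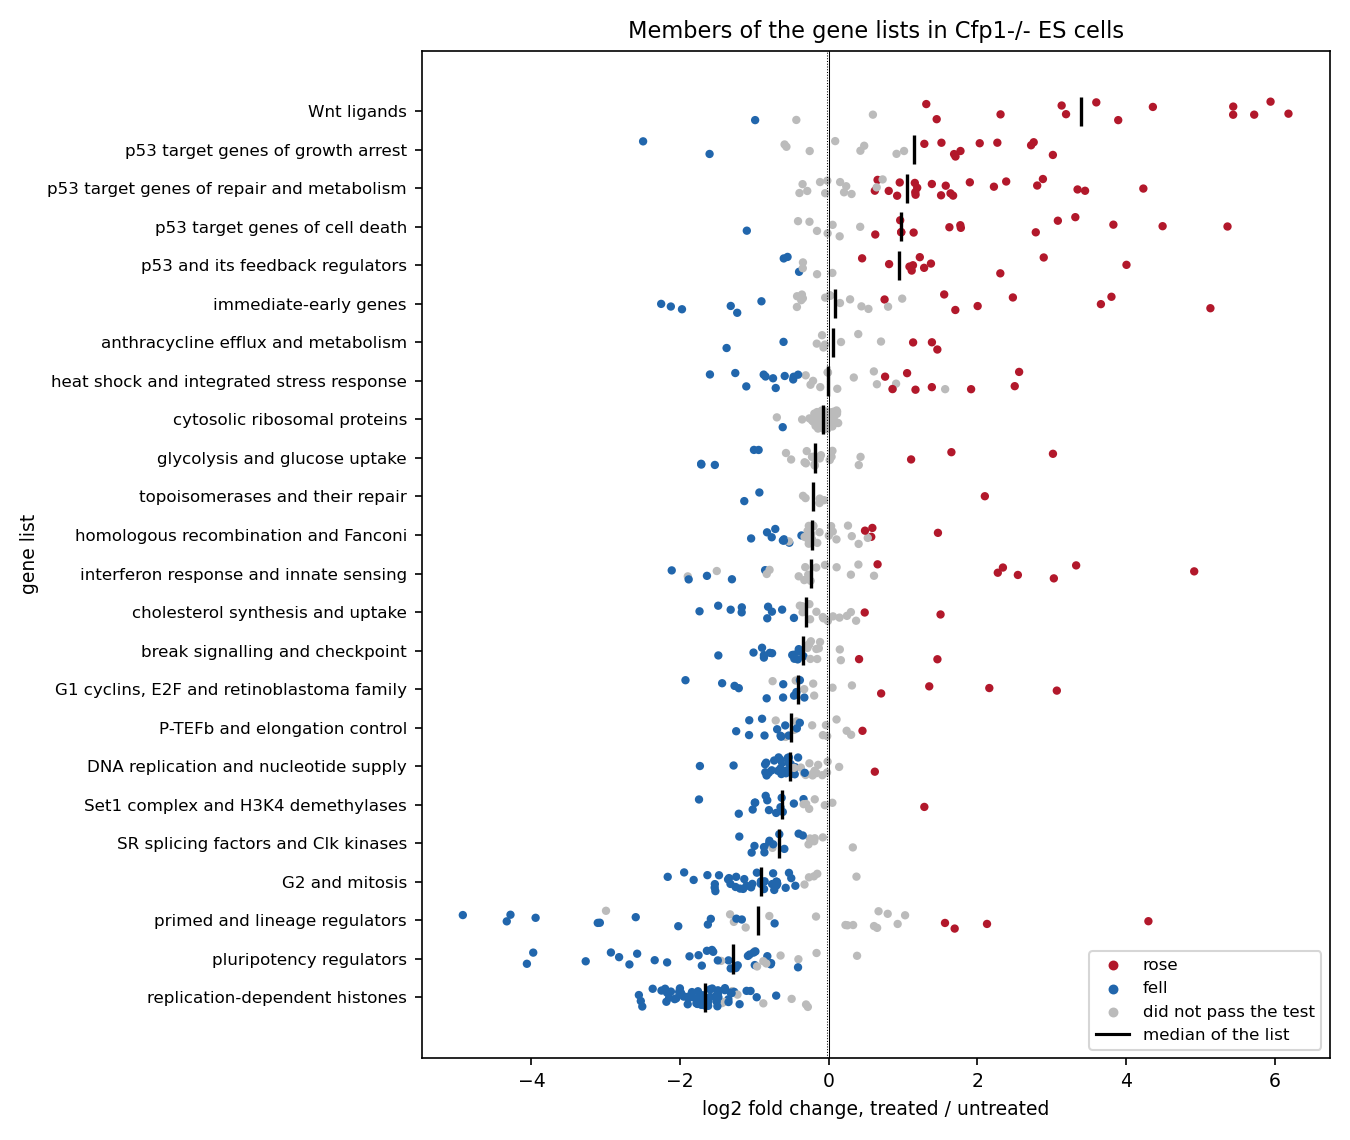
Log2 fold change (treated over untreated Cfp1-/- cells) of every tested member of the 24 gene lists, ordered by median. Red points rose and blue points fell at an adjusted p below 0.05, grey points did not pass, black bars are medians, and the dotted line is the median of all genes tested. Histone genes (-1.67) and Wnt ligands (3.40) stand at the ends and ribosomal proteins (-0.08) near 0.

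The response differed with the usual level of a gene. Genes were grouped by their level in untreated WT cells, which are not part of this comparison, and summed within each Cfp1-/- library. The 5994 genes below 1 normalized count in WT summed to 8327 and 8499 in untreated and 22962 and 28428 in treated Cfp1-/- libraries, a ratio of 2.76 in replicate 1 and 3.35 in replicate 2. Genes between 10 and 100 counts gave ratios of 1.98 and 2.20, and those between 100 and 1000 gave 1.15 and 1.18. For the 440 genes with 10000 counts or more the ratios were 0.755 and 0.706. The order of the bins was the same in both replicates. Genes under 10 counts in WT still held little of the library, 0.0385% and 0.161% of counts untreated and 0.139% and 0.565% treated in the lower and the upper of the pair of bins. The 1113 olfactory receptor genes, which ES cells do not use, summed to 181.5 and 153.7 counts untreated and 316.9 and 369.1 treated.

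**Figure D4:**
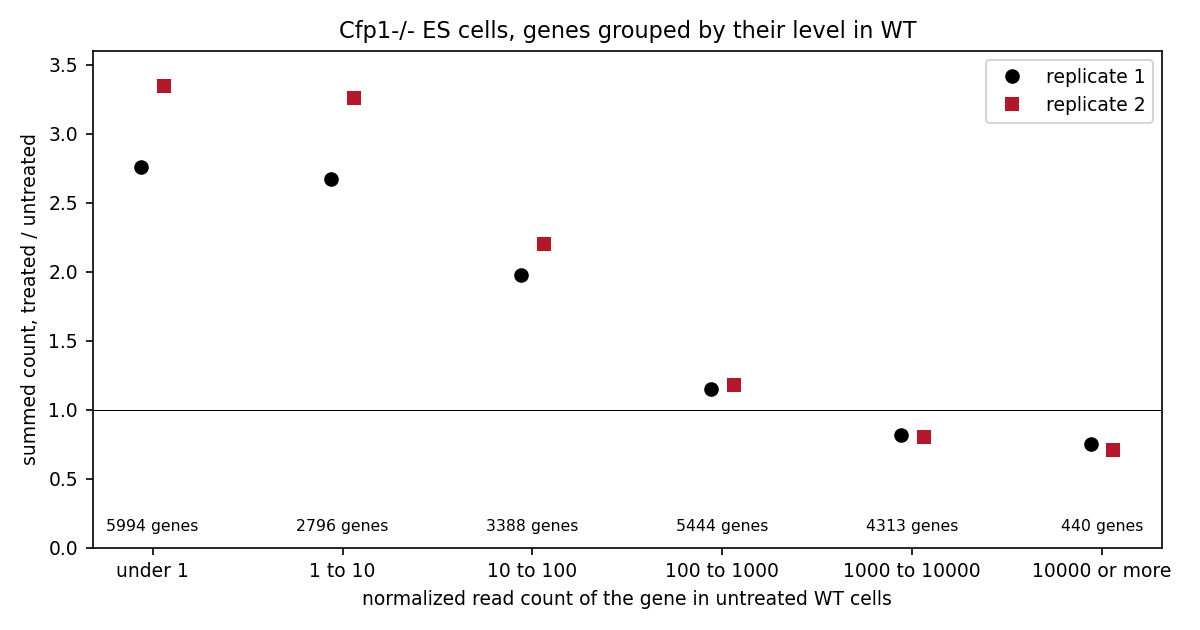
Ratio of summed normalized read counts, treated over untreated Cfp1-/- libraries, for genes grouped by their level in untreated WT cells. Circles are replicate 1 and squares replicate 2, and the ratio passes from about 3 in the lowest bins to 0.755 and 0.706 in the highest.

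Long genes had a higher median change than short ones in Cfp1-/- cells. The 819 tested genes spanning more than 200 kb had a median log2 fold change of 0.25, with 249 that rose and 112 that fell, and the 4238 spanning up to 10 kb had a median of -0.08, with 948 and 830. Genes between these limits had medians of -0.04 and 0.07. Over all genes tested, 27.3% rose and 22.9% fell. In WT cells the medians were 0.066 for genes over 200 kb and 0.072 for those up to 10 kb. On the X chromosome 58 of 576 genes tested rose and 173 fell (median -0.31), beside shares of 27.3% and 22.9% over all genes. The median of the X chromosome genes in WT cells was -0.30. For these genes the treated Cfp1-/- group rests on replicate 2 and a single run of replicate 1.

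The called genes largely moved in WT cells too. Among the 829 upregulated genes of Cfp1-/- cells 573 were also upregulated in WT at the same limits, which is 69.1% of the Cfp1-/- list and 71.8% of the 798 genes of the WT list. For downregulated genes 257 were shared, 70.2% of the Cfp1-/- list and 56.4% of the 456 of WT. The sign was opposite in WT for 5 upregulated and 2 downregulated genes. Cdkn1a changed by 2.03 ± 0.24 (log2) in Cfp1-/- and by 3.32 in WT cells, a difference that did not pass the test (adjusted p = 0.192, edgeR), and Mdm2 2.31 and 2.67 (adjusted p = 0.617). Trp53, which fell in Cfp1-/- cells, was at 0.08 in WT, again without passing (adjusted p = 0.295).

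The test of the difference itself, null response minus WT response, passed for 43 of 15702 genes (0.274%), and 1731 had an unadjusted p below 0.05. Among the called genes it passed for 14 of 829 that went up and 2 of 366 that went down. Of the 43, 25 had the more negative response in Cfp1-/- cells and 18 the more positive. The same replicate numbers deviated together between groups, and with the replicate number as a block 315 genes passed, while DESeq2 gave 241. Without either treated Cfp1-/- library or without untreated replicate 1 the count was 0, and without any other single library it was 5 to 20. In the WT treated replicate 1, too, both runs differed beyond counting noise, with a chi-square of 9.61 per degree of freedom. With the first run of every library alone, 39 genes passed. The part of the mismatch between these WT runs was not tested separately.

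Myo7a, the myosin of hair cell stereocilia, showed the largest difference among those of these genes with a mean of 200 counts or more over the 8 libraries. It had 873.4 and 615.8 counts untreated and 1398 and 1469 treated in Cfp1-/- cells, a log2 fold change of 0.94 ± 0.19, while in WT cells it rose by 4.01 ± 0.24 from 31.4 ± 0.73 to 506.4 ± 68.5 counts (mean ± SD, n = 2). The difference was -3.06 ± 0.30 (adjusted p = 0.00935, edgeR across all genes). The untreated level in Cfp1-/- cells was already above the treated level in WT. Cyp4f39 (3.58 in Cfp1-/- and 6.52 in WT), a fatty acid hydroxylase, and Zfp750 (2.22 and 4.90), a factor of epidermal differentiation, also rose less in Cfp1-/- cells.

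In the other direction Fxyd6, a regulator of the sodium pump, rose by 2.40 ± 0.25 in Cfp1-/- cells, from 55.8 and 70.9 to 302.5 and 368.1 counts, and was at -0.15 in WT, where it had 733.2 ± 194 counts untreated (SD, n = 2). Catsperg1, a sperm ion channel subunit, rose from 35.9 and 28.2 to 381.3 and 386.7, a log2 fold change of 3.58 against 1.16 in WT. As for Myo7a, the response of Mycn was the more negative in Cfp1-/- cells. Mycn fell by 4.06 there and by 2.27 in WT cells, a difference of -1.79 ± 0.27 (adjusted p = 0.0413, edgeR). Its untreated level was 1892 and 2578 counts against 5179 ± 713 in WT (SD, n = 2), and treated libraries of WT averaged 1075 ± 200. The muscle phosphofructokinase gene Pfkm rose by 1.11 ± 0.14 and was at -0.12 in WT (adjusted p of the difference 0.0450, edgeR).

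**Figure D5:**
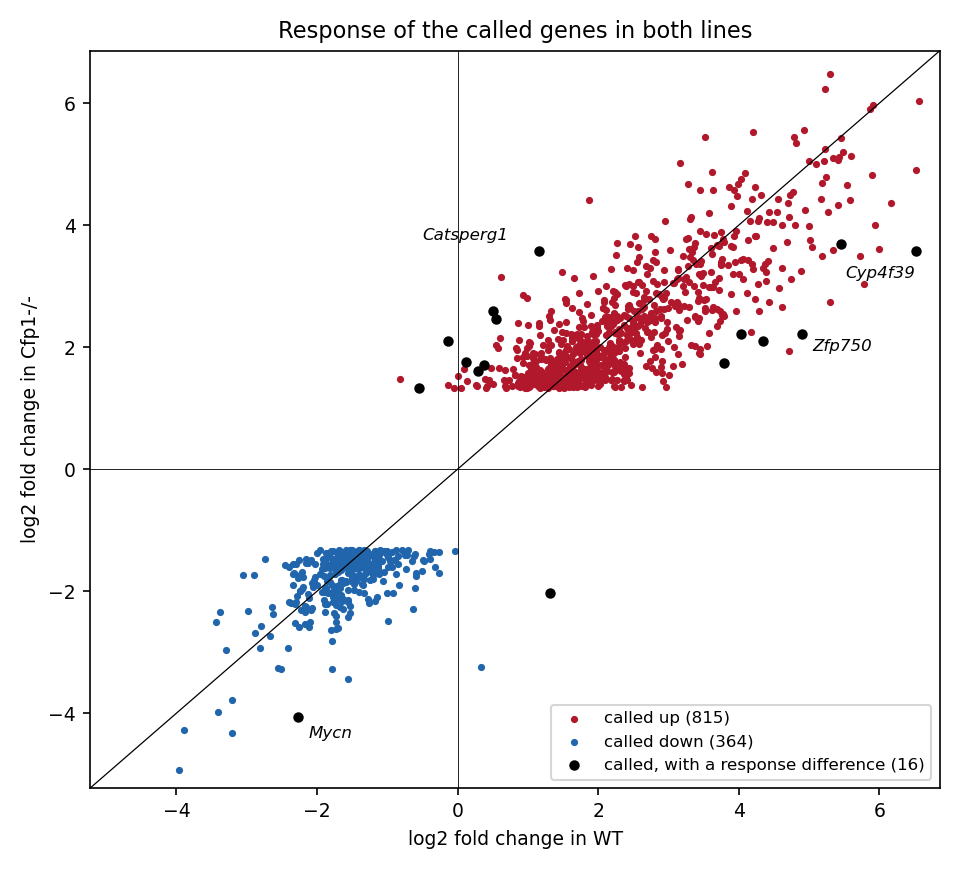
Log2 fold change after doxorubicin in Cfp1-/- cells (vertical) against WT cells (horizontal) for the called genes, with the line of equal response. Red points are 815 upregulated and blue points 364 downregulated genes, and the 16 black points are the 14 and 2 whose responses differed between the lines. Most points have the same sign in both lines.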

How the data were processed

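Strand-specific RNA-Seq of rRNA-depleted total RNA was analysed. According to the study's methods, the authors mapped read pairs to mm9 (NCBIM37) with STAR (version 2.2.1 in the submitters' processing notes) and counted sense reads over exons with HTSeq. The deposited table holds raw counts for 22375 genes in 16 runs. A second deposited table of normalized values was not used.

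Both runs of a library were summed, and the broken run was left out for the affected genes through a per-gene offset. The 4 groups of 2 replicates were fitted together with edgeR 4.0.16 in R 4.3.3 (TMM, filterByExpr, quasi-likelihood F test, Benjamini-Hochberg over 15702 genes). The WT samples share the estimate of spread. Errors of log2 fold changes are standard errors. On simulated counts, 98% of 200 genes changed 3-fold were recovered, with 10 false calls among 15301 genes. Those counts held 200 changed genes, while 4283 genes rose and 3599 fell in the data. Every simulated gene had the same spread, and same-numbered replicates did not deviate together. Recovery and false calls at the number of changes and with the spread of the data were not tested. Depth was 17866427 to 25308913 counts in Cfp1-/- libraries. The limits on fold and mean follow the study's methods. The main fit had no replicate block, although differences between replicates 1 and 2 correlated at 0.134 to 0.413 in all 6 pairs of groups. The block, which takes replicate numbers as pairing, was run as an alternative. Alternatives were DESeq2 1.42.0, its size factors, total-count scaling, no filter, the replicate block, other limits, run choices and leaving out each library.

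Lists and members were chosen with earlier results of these data known. Genes were named by rule: the 10 largest rises and falls among called genes, the 4 (7 in lists over 20) largest changes per list with a mean of 200 counts, the 8 largest response differences, the 5 largest changes in counts each way among called genes, 8 genes of the pathway and the cell type markers. Trp53, Gadd45a, Bax, Wnt3a, Wnt5a, Wnt8b, Wnt9b, Wnt10b, Cdk1, Ccnf, Calhm2, Ccng1, Gtse1, Rps27l and the histone genes were named outside it, after their values were seen. Both promoter motifs TTTGAA and CCAAT were added after the data were seen. Promoter sequences are from RefSeq (GRCm38.p6), matched by gene ID or symbol. Some genes that the rule names are not reported here.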

Additional observations from a re-analysis of the deposited data

Results flagged for a closer look

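In 43 genes the response to doxorubicin differed between Cfp1-/- and WT cells by the interaction test of edgeR, which flagged each of the following results. Differences are null minus WT on the log2 scale. The response was more negative in Cfp1-/- cells for Myo7a (-3.06), Cyp4f39 (-2.94), Zfp750 (-2.69), Ly6g6e (-2.42), Cd80 (-2.34), Mlana (-2.24) and Mycn (-1.79). It was more positive for Fxyd6 (2.55), Catsperg1 (2.43) and Pfkm (1.23). Ly6g6e, a small surface protein of the Ly6 family, had 359.2 and 518.4 counts untreated and 307.7 and 336.8 treated in Cfp1-/- cells, and a log2 fold change of 1.98 in WT. Cd80, a costimulatory ligand of T cells, rose by 0.92 in Cfp1-/- cells and by 3.27 in WT. Mlana, a melanosome protein whose gene lies in the region with lost counts, rose by 2.11 against 4.35 in WT. Of the 8 fits that each leave out 1 library, the difference passed in 5 for Myo7a, 4 for Zfp750, 3 for Fxyd6, 2 for Catsperg1, 1 each for Cyp4f39, Cd80 and Mycn, and 0 for Ly6g6e, Mlana and Pfkm, with the same sign in every fit. The rise of Cd80 in Cfp1-/- cells no longer passed without treated replicate 1 (0.73) or untreated replicate 2 (0.81). With 2 replicates a group, no single library could be tested for standing apart.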

How the results depend on the processing

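Upregulated genes numbered 829 and downregulated genes 366. With a fold change of at least 4 there were 448 and 87, with at least 2-fold 797 were downregulated, without a limit on the mean count 2844 and 640, and by adjusted p alone 4283 and 3599. Scaling by total counts gave 202 downregulated genes, all of them among the 366. Leaving out 1 library at a time gave 743 to 896 upregulated and 286 to 497 downregulated genes, and 0 to 20 response differences. Response differences numbered 241 with DESeq2, 160 without the filter on low counts and 315 with the replicate block, against 43. The block moved the calls little, to 834 upregulated and 376 downregulated. Other alternatives kept both counts within 1.5 times. Genes near 0 that did not pass changed sign: Bax with scaling by total counts (0.23), without the broken run (0.06) and with first runs alone (0.08), Ccnf (0.04) and Dppa5a (0.07) with scaling by total counts. Leaving out a library gave -0.11 to 0.05 for Bax, -0.71 to 0.07 for Gadd45a, -0.12 to 0.21 for Rps27l and -0.40 to 0.02 for Dppa5a. Gtse1 passed with scaling by total counts (0.33). The cause of these shifts was not tested, apart from the fewer samples of the fits that leave a library out. Depth limits statements on genes near the floor of 3 counts, such as Cxxc1, Wnt9b and Wnt10b.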
